A study of Mus musculus with 8 samples.

Results

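Collagen genes, the 44 genes whose symbol in the authors' deposited comparison has the form Col, a number, a and a number, were followed through astrocytes of the mouse spinal cord with and without the potassium channel Kir4.1. They are 44 of the 39179 gene identifiers counted, were chosen by symbol alone, and were joined to the count tables by Ensembl identifier. Astrocytes carrying the Aldh1l1-GFP reporter were sorted by flow cytometry from spinal cords of mixed Swiss-Webster mice at postnatal days 12 to 14, after the meninges had been taken off and the tissue dissociated with papain. The control group held 4 biological replicates from cre-negative mice with the genotype label wild-type/Aldh1l1-GFP+ (control S1, S2, S6 and S7). The cKO group, for conditional knockout, held 4 from mice in which Aldh1l1-cre acted on 2 floxed alleles of Kir4.1, labelled Kir4.1-cKO/Aldh1l1-GFP+ (cKO S3, S4, S5 and S8). All 8 libraries thus came from cells with the GFP reporter, and whether the controls carried floxed alleles is not given in the sources used here. Cre was driven by Aldh1l1, a gene active in astrocytes in general, so the deletion need not have been limited to the spinal cord. By its title, the study asked how Kir4.1 in astrocytes bears on fast motor neurons and on strength.

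Collagens are extracellular proteins built from 3 chains wound into a triple helix, and each gene encodes 1 chain. Fibrillar collagens form the rope-like fibrils of connective tissue, type IV collagens form the sheet of basement membranes, and FACIT collagens (fibril-associated collagens with interrupted triple helices) sit on the surface of fibrils. In the central nervous system fibrillar collagen is known mainly from the meninges and from fibroblasts around blood vessels, and type IV collagen from the basement membrane that lies between vessels and astrocyte endfeet. New chains are hydroxylated on proline and lysine and folded in the endoplasmic reticulum before they are secreted, cut and cross-linked.

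Reads assigned to genes numbered 13892736 (control S2) to 25065686 (cKO S8) per library, and 17312 to 20470 genes were detected. Levels are given as CPM, counts scaled to library sizes adjusted for composition, and 4 values in a row follow the order S1, S2, S6, S7 in controls and S3, S4, S5, S8 in cKO. Kcnj10, the gene of Kir4.1, was lower in each cKO library (27.2 to 37.6 CPM) than in any control library (1181 to 2306 CPM), so no label was contradicted. The 10 astrocyte markers summed to 15077 to 22855 CPM per library with none at 0, and 2 of them rose in cKO, Aldh1l1 (log2 fold change 1.01, edgeR adjusted p 0.0179), the gene that the reporter and cre are named for, and Aqp4 (1.09, edgeR adjusted p 0.0243). The 13 fibroblast markers, which hold no collagen, summed to 14.6, 45.3, 284 and 31.3 CPM in the controls and to 61.5, 29.9, 25.9 and 76.0 CPM in the cKO libraries. Control S6 stood apart: its level of the fibroblast proteoglycan genes Dcn and Lum was 174 and 37.8 CPM, against at most 25.2 and 5.62 CPM in any other library. Not every marker followed: Islr was highest in cKO S8 (40.2 CPM, against 23.2 in control S6), and Ranbp3l in control S2 (9.10 CPM, against 3.46 in control S6). Between 2 and 7 of the 13 fibroblast markers were at 0 in each library, and none of the 7 tested passed the threshold. In bulk RNA, fewer cells of a type and less RNA per cell cannot be told apart.

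Of the collagen genes, Col5a3 rose in cKO, and it was the 1 collagen gene of 32 tested that passed the threshold. Col5a3 encodes a chain of type V collagen, a minor fibrillar collagen known to regulate fibrils of type I. Its mean level went from 15.6 CPM ± 8.15 to 115 CPM ± 56.8 (SD, n = 4 each), whereas Col1a1, Col1a2 and Col3a1, the chains of the major fibrils, had estimates below 0 that did not pass. By the quasi-likelihood test of edgeR, adjusted by Benjamini-Hochberg over all 14757 genes tested, 3.12% of tested collagen genes had an adjusted p under 0.05, beside 0.318% (47 genes) of all genes. Of the 47, 30 were higher and 17 lower in cKO, while library totals in place of composition scaling gave 48 higher and 14 lower. Without adjustment, 10 collagen genes had a p under 0.05 (31.2%, 4 higher and 6 lower), beside 9.81% of all genes. Of the 32 estimates, 10 were above 0 and 22 below, with a median log2 fold change (cKO over control) of -0.70. Over all genes tested, 7139 were above 0 and 7618 below, and the median was -0.017. The other 12 collagen genes did not pass the count filter, which asks for enough counts in several libraries, and were not tested.

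For 5 collagen genes (15.6% of those tested, beside 6.34% of all genes) the 4 libraries of one group lay entirely above the 4 of the other. Col5a3, Col16a1 and Col9a1 were the ones higher in every cKO library, and Col1a2 and Col9a2 the ones lower. These same 5 genes had an adjusted p under 0.05 when the counts were tested with DESeq2, where 33 collagen genes had an adjusted p (15.2% called, beside 2.49% of all genes). They were also the 5 of 25 collagen genes (20.0%, beside 2.87% of all genes) called in the authors' deposited table, itself a DESeq2 comparison of the same libraries. The authors' deposited table gave Col5a3 a log2 fold change of 2.08 with an adjusted p of 2.92e-07. Its log2 values were 0.95 for Col16a1, 1.13 for Col9a1, -0.67 for Col1a2 and -1.35 for Col9a2, with adjusted p of 0.0006315, 0.0404, 0.0151 and 0.0112. When run here on the same counts, DESeq2 and edgeR differed in the call for 4 of the 5, with near-identical log2 fold changes. For Col5a3, Col16a1, Col9a1, Col1a2 and Col9a2 in turn, DESeq2 gave 2.90, 1.04, 1.635, -0.71 and -2.11. The edgeR values were 2.89, 1.04, 1.63, -0.71 and -2.10. The authors' deposited log2 values were smaller in size for all 5, but their adjusted p were close to those of DESeq2 run here. In the same gene order the latter were 2.06e-07, 0.000802, 0.0431, 0.0171 and 0.0119. The smaller deposited log2 values are therefore no sign that the authors found weaker changes. The 2 sets of log2 values are not compared further, and the cause of their difference was not tested.

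**Figure D1:**
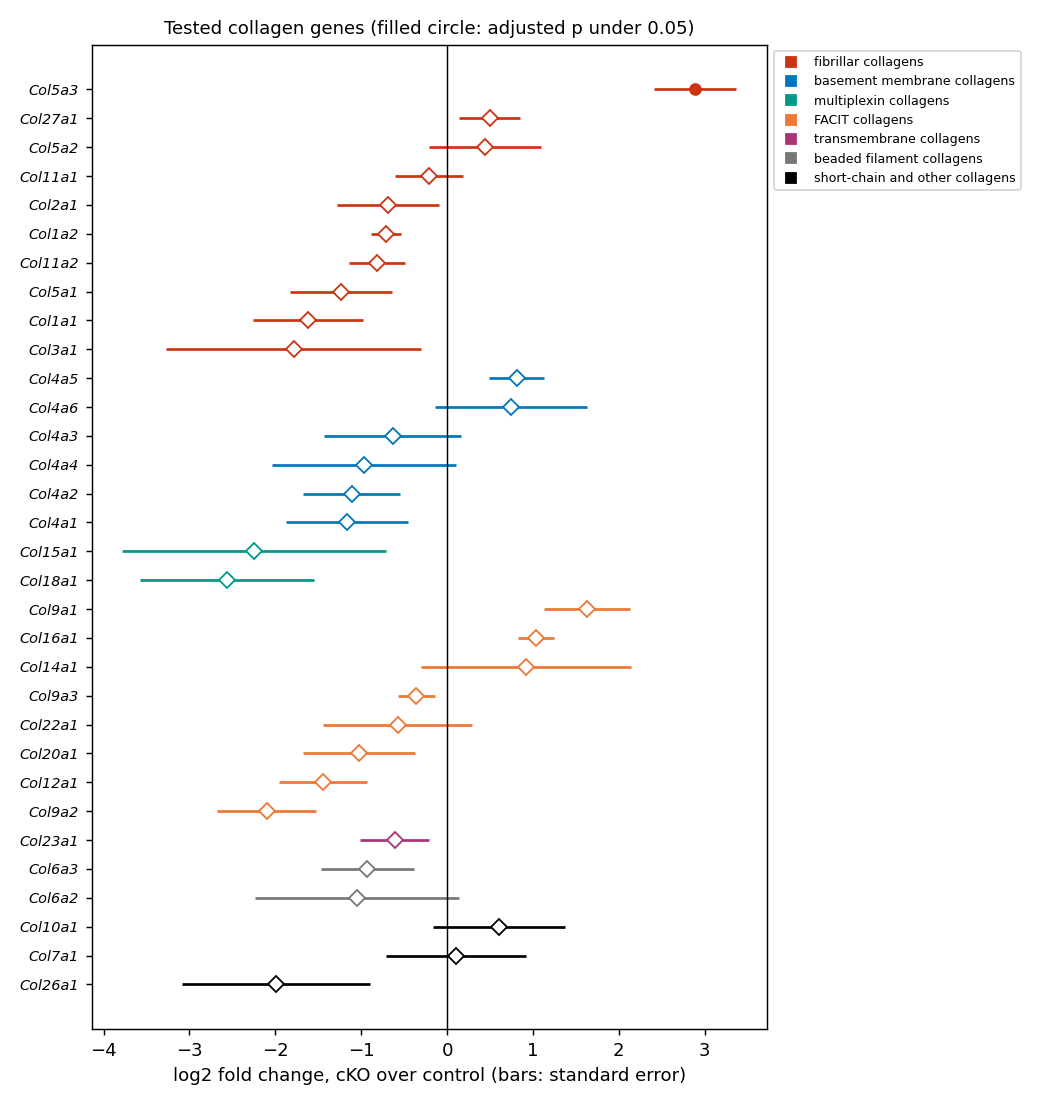
Log2 fold change of each of the 32 tested collagen genes (x axis, cKO over control, edgeR), grouped and coloured by class. Bars show a standard error derived from the edgeR test, and the filled circle marks an adjusted p under 0.05. Col5a3 at 2.89 is the 1 filled point, and 22 of the 32 points lie to the left of 0.

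Among the 11 fibrillar genes, 10 were tested, 1 rose (Col5a3), none fell and 9 did not pass, with 3 estimates above 0 and 7 below (median log2 fold change -0.70). The stretches before the RefSeq starts of Col5a3, Col1a2 and Col3a1 are printed to set them beside the values of these genes that follow. They are RefSeq sequence on GRCm38.p6, 5′ to 3′ on the gene's own strand, and give the 250 bases before the start, cut for Col1a2 to the longest stretch outside exons annotated by GENCODE. For Col1a2 GENCODE, the source of the gene coordinates in this text, places the start further upstream, so its stretch lies within the gene as GENCODE draws it. Capitals mark 3 motifs on either strand. A TATA box was searched as TATAAA. The CCAAT box was searched by the letters of its name. For a GC box the letters were GGGCGG.
Col5a3, chr9:20815068-20815317, minus strand: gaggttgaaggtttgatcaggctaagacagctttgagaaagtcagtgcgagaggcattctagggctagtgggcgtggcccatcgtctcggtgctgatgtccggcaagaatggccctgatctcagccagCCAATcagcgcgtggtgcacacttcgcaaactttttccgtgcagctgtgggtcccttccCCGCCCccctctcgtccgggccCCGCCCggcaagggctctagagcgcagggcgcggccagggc
Col1a2, chr6:4505370-4505492, plus strand: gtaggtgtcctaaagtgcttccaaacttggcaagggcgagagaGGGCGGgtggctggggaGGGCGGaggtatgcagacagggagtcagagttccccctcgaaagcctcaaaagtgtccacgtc
Col3a1, chr1:45311288-45311537, plus strand: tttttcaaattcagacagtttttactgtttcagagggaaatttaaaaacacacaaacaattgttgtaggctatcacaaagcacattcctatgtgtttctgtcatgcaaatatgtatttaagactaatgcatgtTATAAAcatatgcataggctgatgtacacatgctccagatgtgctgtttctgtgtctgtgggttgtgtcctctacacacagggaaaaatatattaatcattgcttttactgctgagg
The Col5a3 stretch had a GC content of 62.8%, 2 GC boxes (starting 63 and 41 bases before the start) and 1 CCAAT box, the Col1a2 stretch had 2 GC boxes (its full window also holds a CCAAT box, 109 bases before the RefSeq start and outside the printed cut), and the Col3a1 stretch had a GC content of 35.2% and 1 TATAAA. Promoter windows of 250 bases were found for 35 collagen genes (38 windows). A GC box stood in 57.9% of these windows, against 32.7% of all 32851 windows in the table. CCAAT stood in 34.2% against 33.8%, and TATAAA in 13.2% against 12.4%. These matches describe letters and show no binding.

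Col5a3 (ENSMUSG00000004098) lies on the minus strand of chromosome 9, from 20770050 to 20815067 on GRCm38. Its levels were 18.0, 19.4, 21.3 and 3.51 CPM in the controls. In the cKO libraries it was 61.3, 86.5, 192 and 121 CPM. Every cKO library was above every control library, control S7 was the lowest of all and cKO S5 the highest. This 7.42-fold difference, 2.89 on the log2 scale (SE 0.48), had an edgeR adjusted p of 0.0243. An exact 2-sided permutation test of log2 CPM over the libraries gave p = 0.0286, the smallest that 4 against 4 libraries allow. The call was lost in the 6 fits that left out control S1, S2 or S6 or cKO S4, S5 or S8, with edgeR adjusted p of 0.0655 to 0.0818 and log2 fold changes of 2.54 to 3.09. It was kept without control S7 (log2 fold change 2.56, adjusted p 0.0141) and without cKO S3 (3.11, adjusted p 0.0235).

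The libraries with the most fibroblast marker reads and with the most Col5a3 differed. Control S6, with 284 CPM of these markers, held 21.3 CPM of Col5a3, and cKO S5, with 25.9 CPM of them and 6 of 13 at 0, held 192 CPM. These libraries also belong to different groups. The part of fibroblast RNA in the Col5a3 values was not tested. With the fibroblast level as a covariate the Col5a3 log2 fold change was 2.90 and the edgeR adjusted p was 0.0747, past the threshold no longer. On the authors' FPKM values, tested with limma on the log2(FPKM + 1) scale, the log2 fold change was 2.54 with an adjusted p of 0.1097. The annotation places Gm26274, a small RNA gene on the opposite strand, within Col5a3, with 0 shared exon bases.

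Col1a2 (ENSMUSG00000029661, chromosome 6, 4504814 to 4541544) encodes the second chain of type I collagen, the main collagen of skin, bone and tendon. It stood at 88.9, 124, 136 and 134 CPM in the controls and at 69.3, 64.4, 74.9 and 86.6 CPM in the cKO libraries. The groups did not overlap, but control S1 and cKO S8 were close. Controls averaged 121 CPM ± 21.8 (SD, n = 4) and cKO 73.8 CPM ± 9.56 (SD, n = 4). That log2 fold change, -0.71 (SE 0.18), had an edgeR adjusted p of 0.148 and an exact permutation p of 0.0286. The edgeR test therefore did not pass over all genes, while DESeq2 gave an adjusted p of 0.0171 for the same fold change. Control S6, the library with the most fibroblast marker reads, was also the highest for Col1a2, followed by control S7 and S2. The part of fibroblast RNA in the Col1a2 values was not tested.

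Col1a1 (ENSMUSG00000001506, chromosome 11, 94936224 to 94953042) encodes the first chain of type I collagen, which joins that of Col1a2 in 1 molecule. Its level was 20.5, 39.0, 130 and 31.3 CPM in the controls and 32.3, 11.4, 3.13 and 24.8 CPM in the cKO libraries. Control S6 stood far above the rest, cKO S5 was the lowest, and the groups overlapped. The log2 fold change of -1.62 (SE 0.64) had an edgeR adjusted p of 0.415 and an exact permutation p of 0.143. Without control S6 the log2 fold change was -0.76, with an edgeR adjusted p of 0.735.

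Col3a1 (ENSMUSG00000026043, chromosome 1, 45311538 to 45349706) encodes the chain of type III collagen, found beside type I in distensible tissues. It had 0 counts in control S1 and in cKO S4 and S5, which allows at most 3 counts in each (0.190, 0.136 and 0.171 CPM). The other control libraries held 9.97, 98.0 and 9.14 CPM (S2, S6 and S7), and cKO S3 and S8 held 17.3 and 16.7 CPM. Libraries with and without the transcript thus occurred in both groups. Dcn, the fibroblast proteoglycan gene, was also at 0 in control S1 and in cKO S4 and S5, and at 15.6, 174 and 2.23 CPM in control S2, S6 and S7 and 25.2 and 16.7 CPM in cKO S3 and S8. Other fibroblast markers were not at 0 in those 3 libraries, such as Islr (5.83, 20.1 and 11.9 CPM) and Ranbp3l (2.98, 6.17 and 4.73 CPM), and Lum was also at 0 in control S7. The Col3a1 log2 fold change was -1.79 (SE 1.48) with an edgeR adjusted p of 0.749 and an exact permutation p of 0.657. Without control S6 the sign turned, to 0.41 with an adjusted p of 0.968. A microRNA gene, Gm47302, shares 141 exon bases with Col3a1, and reads there cannot be told apart.

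**Figure D2:**
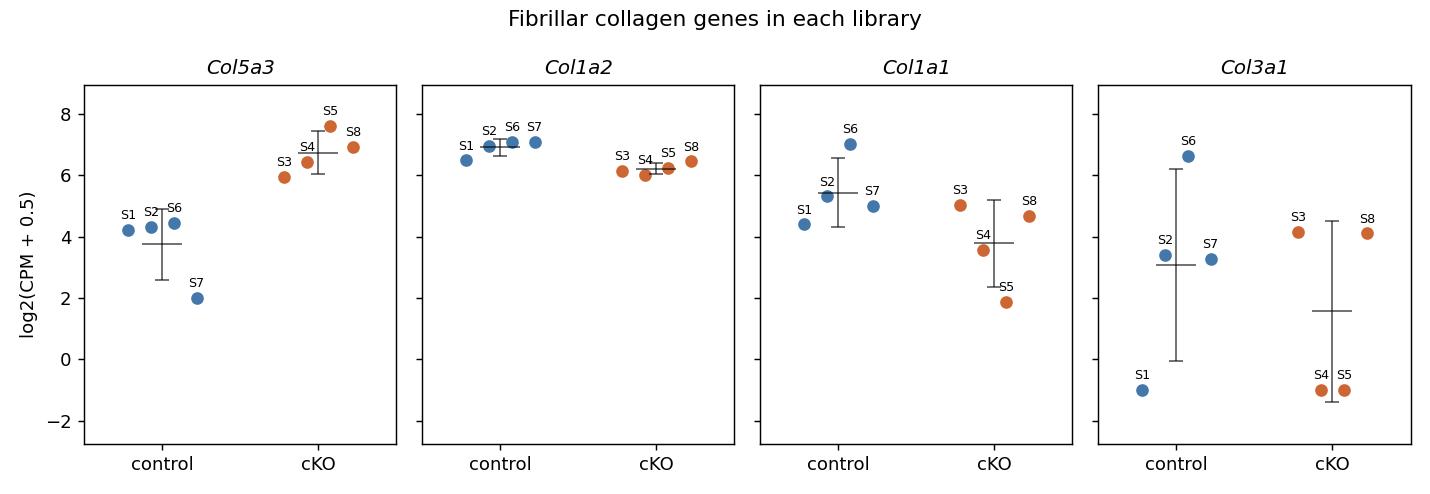
Log2(CPM + 0.5) of Col5a3, Col1a2, Col1a1 and Col3a1 (shared y axis) in each of the 4 control and 4 cKO libraries, with the group mean as a line and the SD as a bar. The cKO points lie above all control points for Col5a3 and below them for Col1a2, while the groups overlap for Col1a1 and Col3a1. The lowest points of Col3a1 are 3 libraries with 0 counts.

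Whether Col5a3 changed differently from the other fibrillar genes was tested on ratios within each library, log2 of (CPM + 0.5), with an exact 2-sided permutation test and adjustment over the 5 ratios computed. The log2 ratio of Col5a3 to Col1a2 was -2.27, -2.64, -2.64 and -5.07 in the controls and -0.18, 0.42, 1.35 and 0.48 in the cKO libraries. The groups did not overlap. The difference was 3.68 (exact p 0.0286, adjusted p 0.0714). Because Col5a3 was higher and Col1a2 lower in every cKO library, this ratio had to separate the groups. Its exact p was thus fixed in advance and adds nothing to the results of the single genes. The ratio to Col1a1 differed by 4.63 with the same exact p and adjusted p, also without overlap. That to Col3a1 differed by 4.49 (exact p 0.114, adjusted 0.190). The ratio of the type I chains to each other, Col1a1 to Col1a2, differed by -0.95 (exact p 0.371, adjusted 0.464), so no ratio passed an adjusted threshold of 0.05, and 0.0714 is what the smallest exact p gives when 2 of the 5 ratios reach it.

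Per kilobase of exon, the Col1a1 level divided by the Col1a2 level was 0.438, 0.595, 1.81 and 0.442 in the controls and 0.882, 0.335, 0.0792 and 0.543 in the cKO libraries. Control S6 was the 1 library in which Col1a1 exceeded Col1a2. Col5a3 made up 8.98%, 7.12%, 4.03% and 1.07% of all fibrillar collagen CPM in the controls. In the cKO libraries it made up 21.9%, 36.1%, 50.8% and 36.4%. With Col5a3 set aside, the summed fibrillar level was 182, 253, 508 and 324 CPM in the controls and 218, 153, 186 and 212 CPM in cKO, so cKO S3, S5 and S8 lay above control S1. Including it, they averaged 333 CPM ± 141 over the controls and 307 CPM ± 60.8 over the cKO libraries (SD, n = 4).

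Col5a1 and Col5a2 encode the other chains of type V collagen. Col5a1 stood at 3.87, 3.57, 22.2 and 10.8 CPM in the controls and at 4.34, 6.26, 1.71 and 4.88 CPM in the cKO libraries. Its log2 fold change was -1.23 with an edgeR adjusted p of 0.525. Col5a2 ranged from 1.20 to 6.35 CPM in controls and from 1.59 to 7.47 CPM in cKO (log2 fold change 0.44, edgeR adjusted p 0.874). Neither passed, and the groups overlapped for both. Per kilobase of exon, the level of Col5a3 divided by that of Col5a1 was 0.405 to 6.79 in controls and 17.2 to 140 in cKO.

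Of the other fibrillar genes, Col11a2, a chain of the type XI collagen best known from cartilage, had 31.1, 33.4, 36.9 and 80.4 CPM in the controls and 31.4, 19.5, 33.8 and 18.5 CPM in the cKO libraries. Control S7 was far above the other controls, which overlapped with cKO. The estimate was -0.82 on the log2 scale (SE 0.32, edgeR adjusted p 0.416), and -0.38 without control S7. Col27a1, a fibrillar chain of cartilage, was at 28.1, 25.2, 44.3 and 8.91 CPM in the controls and at 33.7, 38.1, 43.6 and 34.8 CPM in cKO (log2 fold change 0.50, edgeR adjusted p 0.699). Its control values straddled the cKO range. Col2a1, the main cartilage collagen, and Col11a1 had log2 fold changes of -0.69 and -0.21 with edgeR adjusted p of 0.758 and 0.907. Col24a1 had at most 26 counts in a library and was not tested.

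The FACIT class held Col9a3, the collagen gene with the highest level per kilobase of exon over all libraries. Col9a1, Col9a2 and Col9a3 encode the 3 chains of type IX collagen, which in cartilage coats fibrils of type II. Of the 9 FACIT genes, 8 were tested and none passed, with 3 estimates above 0, 5 below and a median log2 fold change of -0.47. Their summed CPM was 243 ± 63.0 over the controls and 196 ± 32.5 over the cKO libraries (SD, n = 4), 27.8% to 43.2% of all collagen CPM in any library.

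Col9a3 (ENSMUSG00000027570, chromosome 2, 180597790 to 180622189) had 113, 87.6, 138 and 174 CPM in the controls and 101, 92.9, 125 and 80.8 CPM in the cKO libraries. The groups overlapped, and the log2 fold change of -0.36 (SE 0.21) had an edgeR adjusted p of 0.621. Its 3′ end shares 234 exon bases with Tcfl5 on the opposite strand. Reads on these bases cannot be assigned to 1 gene by position alone, so the Col9a3 count is less certain there.

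Col16a1 (ENSMUSG00000040690, chromosome 4, 130047840 to 130099283), the chain of a collagen found in small amounts in many connective tissues, had 27.2, 21.4, 33.1 and 22.4 CPM in the controls. In the cKO libraries it had 45.2, 43.9, 60.4 and 64.1 CPM, above all controls. Controls averaged 26.0 CPM ± 5.34 (SD, n = 4) and cKO 53.4 CPM ± 10.4 (SD, n = 4). That log2 fold change, 1.04 (SE 0.21), had an edgeR adjusted p of 0.0746. Col16a1 missed the threshold over 14757 genes. It passed in edgeR with library totals in place of composition scaling (0.0343), with a looser filter on low counts (0.0434), with a stricter one (0.0394), and in DESeq2 (0.000802).

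The other 2 chains of type IX collagen were chosen for description after their values had been seen. Col9a1 was at 2.28, 1.24, 4.67 and 5.07 CPM in the controls and at 7.46, 13.2, 15.2 and 5.65 CPM in the cKO libraries (log2 fold change 1.63, SE 0.50, edgeR adjusted p 0.264). Col9a2 was at 4.69, 6.26, 10.3 and 12.5 CPM in the same controls and at 4.34, 1.41, 0.798 and 1.33 CPM in cKO (log2 fold change -2.10, SE 0.58, edgeR adjusted p 0.200). DESeq2 adjusted p were 0.0431 and 0.0119. The groups did not overlap for either gene, in opposite directions, though control S7 and cKO S8 for Col9a1 and control S1 and cKO S3 for Col9a2 lay close. Per kilobase of exon, Col9a1 divided by Col9a2 was 0.297, 0.121, 0.276 and 0.248 in the controls and 1.05, 5.71, 11.6 and 2.60 in the cKO libraries. Col9a3 divided by Col9a2 was 10.7 to 19.4 in controls and 18.7 to 126 in cKO. These ratios were computed with no test, because the pair was picked for its difference.

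**Figure D3:**
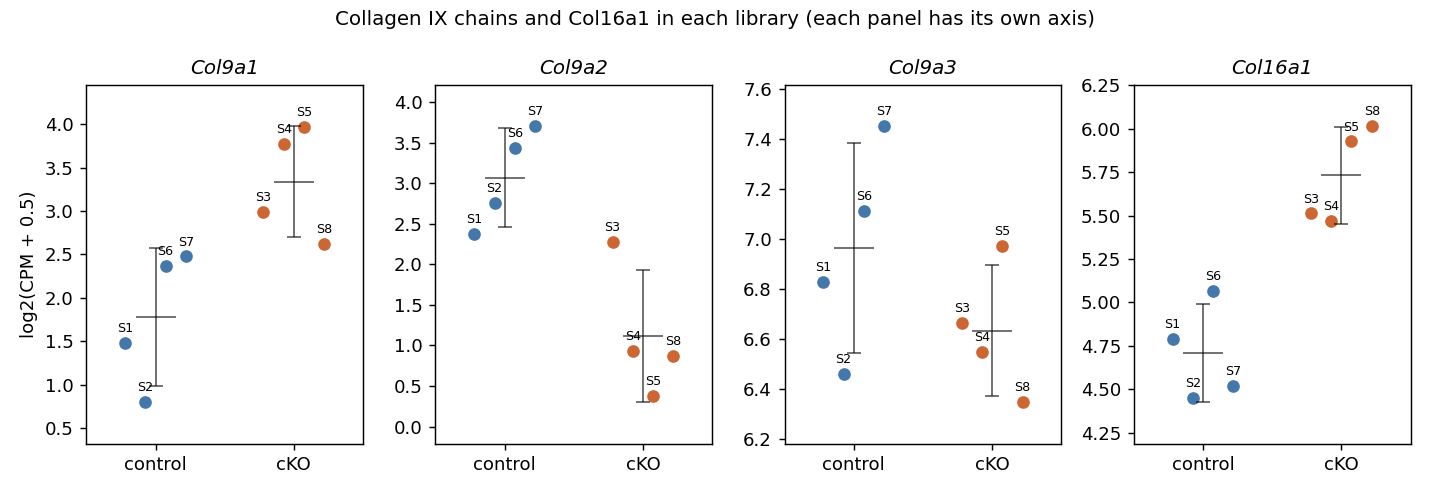
Log2(CPM + 0.5) of Col9a1, Col9a2, Col9a3 and Col16a1 in each of the 4 control and 4 cKO libraries, each panel with its own y axis, with the group mean as a line and the SD as a bar. All cKO points lie above the control points for Col9a1 and Col16a1 and below them for Col9a2, and the groups overlap for Col9a3.

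Markers of oligodendrocyte precursors and of oligodendrocytes are set beside this class and the fibrillar gene Col11a2. The 6 precursor genes were at 0 in no library. They summed to 441, 308, 679 and 1062 CPM in the controls. In the cKO libraries they summed to 454, 226, 244 and 214 CPM. The 8 oligodendrocyte markers summed to 2108, 1464, 2362 and 2929 CPM in the controls. Their cKO sums were 1515, 1822, 2399 and 978 CPM. Control S7, the highest for both marker sums, was also the highest for Col9a2, Col9a3 and Col11a2. It was the highest for the neuron markers too (61.1 CPM). cKO S3, the highest cKO library for the precursor markers, was the highest cKO library for Col9a2. For Col9a3 and Col11a2 the highest cKO library was S5, also the highest of them for the oligodendrocyte markers. Other FACIT genes did not follow control S7: Col12a1, Col16a1 and Col20a1 were highest among controls in S6. The part of these cells in the collagen values was not tested.

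Col12a1, a FACIT chain of tendon and ligament, had 56.4, 50.4, 104 and 64.6 CPM in the controls and 15.8, 6.35, 18.2 and 60.8 CPM in the cKO libraries. cKO S8 lay among the controls while the other 3 cKO libraries lay below them. Its estimate was -1.44 on the log2 scale (SE 0.52, edgeR adjusted p 0.360), and without cKO S8 it was -2.36 with an adjusted p of 0.0397, past the threshold. Col14a1, Col20a1 and Col22a1 stayed under 10 CPM in all libraries, with log2 fold changes of 0.92, -1.02 and -0.57 and edgeR adjusted p of 0.858, 0.647 and 0.877. Col19a1 had at most 25 counts, in control S6, and was not tested.

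None of the 6 basement membrane genes, the type IV chains, passed the threshold. Of their estimates 2 were above 0 and 4 below (median log2 fold change -0.80). The class summed to 46.1, 31.4, 40.3 and 41.7 CPM in the controls and to 47.2, 22.8, 18.3 and 51.2 CPM in the cKO libraries, so cKO libraries lay both above and below the controls. The genes lie head to head in pairs, Col4a1 with Col4a2 on chromosome 8, Col4a3 with Col4a4 on chromosome 1 and Col4a5 with Col4a6 on chromosome X. Col4a1 and Col4a2 encode the chains of the ubiquitous type IV network and share 22 bases of their first exons.

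Col4a1 was at 11.7, 8.66, 12.6 and 27.0 CPM in the controls and at 12.4, 2.81, 0.399 and 11.1 CPM in the cKO libraries. Col4a2 was at 11.03, 8.23, 13.4 and 5.26 CPM in the same controls and at 6.23, 4.08, 0.684 and 6.51 CPM in cKO. cKO S5 was the lowest library for both chains. Their log2 fold changes were -1.17 (SE 0.71) and -1.11 (SE 0.57), with edgeR adjusted p of 0.629 and 0.548. Per kilobase of exon Col4a1 divided by Col4a2 was 0.836 to 0.943 in control S1, S2 and S6 but 4.55 in control S7. In cKO it ranged from 0.517 (S5) to 1.76 (S3), and the log2 ratio differed between groups by -0.38 (exact permutation p 0.686, adjusted 0.686).

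Col4a5, a chain of the type IV network of kidney and other specialised membranes, was at 16.8, 12.6, 9.61 and 7.29 CPM in the controls and at 23.6, 14.3, 15.8 and 27.4 CPM in the cKO libraries. Only control S1 reached into the cKO range. The log2 fold change was 0.81 (SE 0.32, edgeR adjusted p 0.416). Its neighbour Col4a6 was at 1.52, 0.364, 2.03 and 0.711 CPM in the controls and 3.22, 0.590, 0.285 and 3.68 CPM in cKO (log2 fold change 0.74, edgeR adjusted p 0.840). Col4a3 and Col4a4, whose chains form the network of the kidney filter with Col4a5, were low in all libraries. Col4a3 was at 4.69, 0.728, 1.32 and 0.426 CPM in the controls and at 1.43, 0.998, 0.969 and 1.20 CPM in cKO. Col4a4 was at 0.380, 0.873, 1.26 and 1.04 CPM in the controls and at 0.358, 0, 0.114 and 1.33 CPM in cKO, and the groups overlapped for both. Their log2 fold changes were -0.63 and -0.96, with edgeR adjusted p of 0.849 and 0.825, and the sign for Col4a3 turned to 0.48 without control S1, which held the 4.69 CPM.

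Vessel cells are a known source of type IV collagen. The 10 endothelial markers summed to 47.4 to 78.5 CPM in controls and to 26.5 to 60.1 CPM in cKO, with none of the 10 past the threshold and 1 of them at 0 in cKO S5. The 8 mural cell markers, for the cells that wrap vessels, summed to 31.0 to 52.4 CPM in controls and to 36.4 to 41.6 CPM in cKO. Among cKO libraries S3 was the highest for endothelial markers and for Col4a1. cKO S8, with 29.4 CPM of endothelial markers, was the highest of them for Col4a2 and for the summed type IV level. Among controls S7 was the lowest for both marker sums and for Col4a2 but the highest for Col4a1. The part of vessel cells in the type IV values was not tested.

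In the multiplexin and beaded filament classes control S6 stood far above the other libraries. The multiplexins Col15a1 and Col18a1 encode collagens of vessel and epithelial basement membrane zones. Col15a1 was at 0.570, 10.8, 126 and 1.18 CPM in the controls, at 16.2 and 13.0 CPM in cKO S3 and S8, and at 0 counts in cKO S4 and S5 (up to 0.136 and 0.171 CPM). Control S6 held most of its control reads. The log2 fold change of -2.25 (SE 1.53, edgeR adjusted p 0.681) turned to 0.81 without that library, with an adjusted p of 0.920. Col18a1, the precursor of endostatin, was at 0.127, 6.04, 1.76 and 11.6 CPM in the controls and at 0.715, 0.136, 1.20 and 1.24 CPM in cKO (log2 fold change -2.56, SE 1.02, edgeR adjusted p 0.417).

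Of the 4 transmembrane genes only Col23a1 was tested. It had 17.4, 11.8, 33.7 and 25.4 CPM in the controls and 17.5, 13.8, 5.47 and 21.1 CPM in the cKO libraries, with overlap between groups (log2 fold change -0.61, SE 0.40, edgeR adjusted p 0.668). Of the 6 beaded filament genes (type VI), Col6a2 and Col6a3 were tested, with log2 fold changes of -1.05 and -0.93 and edgeR adjusted p of 0.831 and 0.616. The class summed to 40.6 CPM in control S6 and to 1.54 to 10.1 CPM in every other library. Col7a1, Col10a1 and Col26a1, from the short-chain and other class, had log2 fold changes of 0.10, 0.61 and -1.99, and none passed (edgeR adjusted p 0.981, 0.852 and 0.591).

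The 12 collagen genes that were not tested were Col13a1, Col17a1 and Col25a1 (transmembrane), Col6a1, Col6a4, Col6a5 and Col6a6 (beaded filament), Col8a1, Col8a2 and Col28a1 (short-chain and other), Col19a1 (FACIT) and Col24a1 (fibrillar). Their highest count was 136, or 7.47 CPM, for Col6a1 in control S6. Control S6 was the highest library for 6 of these 12 and for 20 of all 44 collagen genes.

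Summed over all 44 genes, collagen reads came to 480, 517, 1088 and 705 CPM in the controls and to 562, 443, 636 and 656 CPM in the cKO libraries. The groups overlapped, with means of 698 CPM ± 278 and 574 CPM ± 96.3 (SD, n = 4 each). Control S6 had the highest sum of any library, and its fibroblast marker sum was also the highest. The part of fibroblast RNA in its collagen level was not tested.

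**Figure D4:**
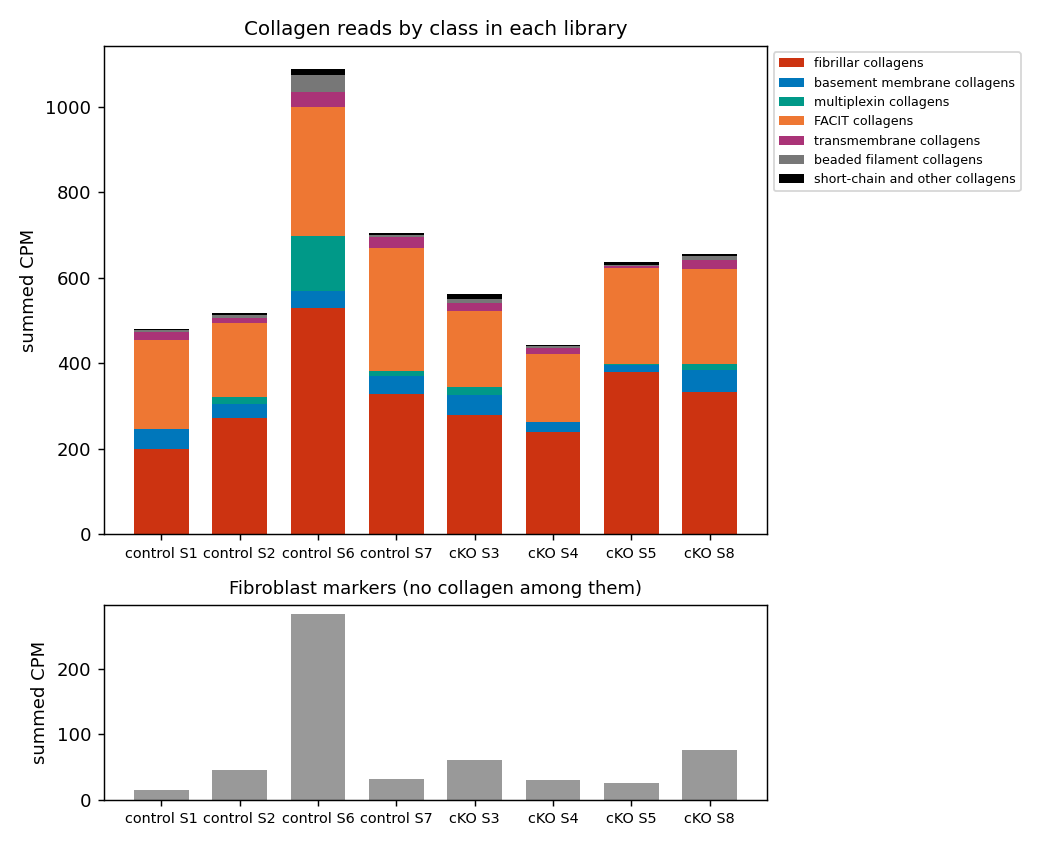
Summed CPM of the collagen genes in each library (upper y axis, bars stacked by class) and summed CPM of the 13 fibroblast markers (lower y axis) in the same libraries. Control S6 has the tallest bar in both, 1088 CPM of collagen and 284 CPM of fibroblast markers, and fibrillar and FACIT genes make up most of each upper bar.

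Levels of different genes were compared per kilobase of exon. Over all 8 libraries the 10 highest were Col9a3, Col5a3, Col1a2, Col16a1, Col1a1, Col11a2, Col15a1, Col23a1, Col12a1 and Col27a1, from 29.6 down to 2.46 CPM per kilobase. In controls Col9a3 (33.3 ± 9.59 CPM per kilobase) was followed by Col1a2 (9.71 ± 1.75) and Col1a1 (8.40 ± 7.67), and Col5a3 stood at 2.29 ± 1.20 (SD, n = 4). In cKO Col9a3 (25.9 ± 4.84) was followed by Col5a3 (16.9 ± 8.34), Col16a1 (7.91 ± 1.54) and Col1a2 (5.94 ± 0.77). The SD ranges of Col1a2 and Col1a1 overlapped in controls, as did those of Col9a3 and Col5a3 in cKO. These SDs describe spread between libraries, while the genes compared were measured in the same libraries. Within libraries, Col1a2 lay above Col1a1 per kilobase in every control but S6. Col9a3 lay above Col5a3 per kilobase in every cKO library. Without control S6, an alternative added after the data were seen, Col15a1 was not among the 10 highest, at 0.941 in place of 3.31 CPM per kilobase over the libraries, and the control level of Col1a1 was 4.61 CPM per kilobase.

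The order also depended on the scale. Per kilobase of coding sequence the same 10 genes led, but Col1a2 (29.3 in controls, 17.9 in cKO) moved above Col5a3 (2.98 and 22.1) over all libraries, since the annotated exons of Col1a2 cover 12426 bases and its coding part 4116. On that scale Col23a1 (13.2) lay above Col1a1 (12.6) in controls. By group means of the authors' FPKM, Col9a3 (113) was followed in controls by Col16a1 (45.8), Col1a2 (31.7) and Col15a1 (24.2), with Col1a1 at 12.1. In cKO, Col16a1 (79.4 FPKM) stood above Col9a3 (77.3), Col5a3 (22.7) and Col1a2 (20.9).

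Genes that act on collagen were read from 3 lists. The 31 genes of collagen synthesis, folding and processing had 26 tested, of which 1 rose (P4ha3), none fell and 25 did not pass, beside 0.318% called over all genes, with a median log2 fold change of 0.14. Of the 10 collagen receptors 9 were tested and none passed, and of the 7 collagen-degrading enzymes 3 were tested and none passed, with medians of 0.15 and -0.16. Where groups without overlap are named below, 6.34% of all genes had none. These lists were drawn up with earlier results of the same libraries known and are no independent evidence of a direction.

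P4ha3 (ENSMUSG00000051048, chromosome 7) encodes a catalytic subunit of prolyl 4-hydroxylase, the enzyme whose product, hydroxyproline, keeps the triple helix stable. It had 27.4, 29.9, 24.0 and 37.3 CPM in the controls and 73.0, 157, 262 and 70.7 CPM in the cKO libraries. All cKO libraries lay above all controls, with cKO S4 and S5 the highest. The log2 fold change was 2.24 (SE 0.37, 4.74-fold) with an edgeR adjusted p of 0.0243. The call was lost without control S1, S2 or S6 or cKO S4 (adjusted p 0.0898, 0.0841, 0.0952 and 0.0943), with the fibroblast covariate (0.0690), with limma-voom (0.0603) and on log2 FPKM with pseudocounts of 0.1 and 1 (0.166 and 0.139). Its log2 fold change in these fits was 1.93 to 2.25. The related subunit genes P4ha1 and P4ha2 overlapped between groups, with log2 fold changes of 0.33 and -0.67 and edgeR adjusted p of 0.638 and 0.691.

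Plod1 and Plod2 encode lysyl hydroxylases, which prepare lysines for cross-links and sugars. Plod1 was at 163, 170, 115 and 189 CPM in the controls and at 214, 381, 556 and 287 CPM in the cKO libraries, without overlap (log2 fold change 1.17, SE 0.26, edgeR adjusted p 0.0961). Plod2, described after its values had been seen, was at 126 to 179 CPM in controls and 192 to 237 CPM in cKO (log2 fold change 0.47, SE 0.16, edgeR adjusted p 0.327). Loxl1, an oxidase that starts cross-links, was at 8.56, 10.5, 5.71 and 17.8 CPM in the controls and at 20.6, 34.2, 25.6 and 20.8 CPM in cKO (log2 fold change 1.25, SE 0.34, edgeR adjusted p 0.196). With all libraries and the main filter none of these 3 passed in edgeR. Plod1 passed in edgeR without cKO S3 (0.0412), with the looser filter (0.0310) and with the stricter one (0.0412), and DESeq2 gave Plod1 an adjusted p of 0.00521 and Loxl1 one of 0.0273. Serpinh1, the collagen chaperone, and P4hb, the other subunit of prolyl 4-hydroxylase, had log2 fold changes of 0.34 and 0.067, with overlap between groups and edgeR adjusted p of 0.669 and 0.930.

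**Figure D5:**
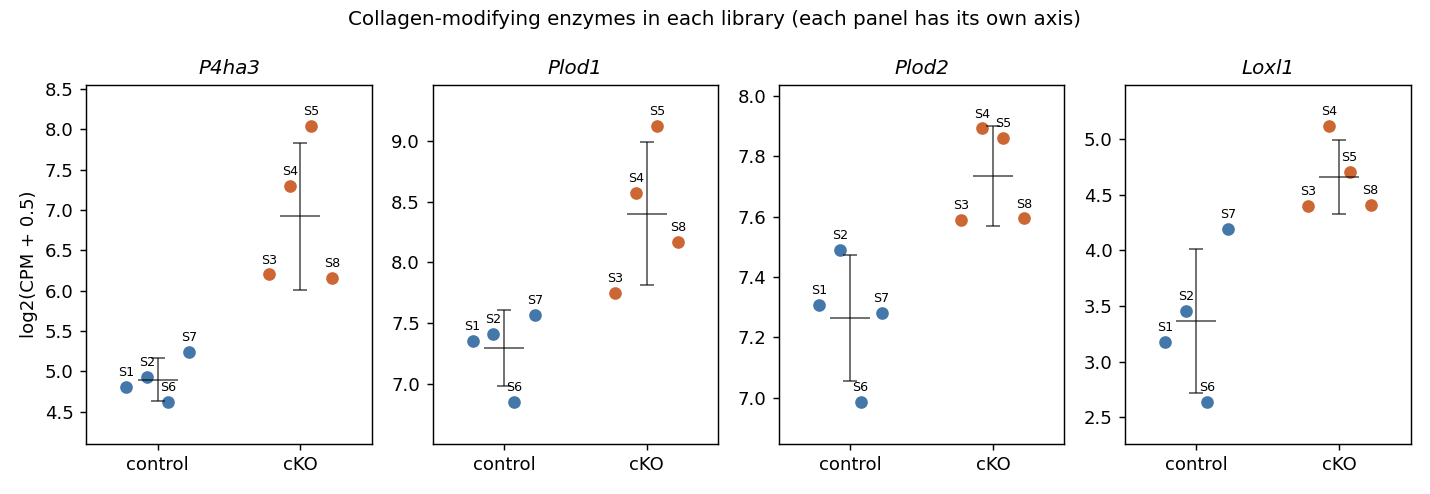
Log2(CPM + 0.5) of P4ha3, Plod1, Plod2 and Loxl1 in each of the 4 control and 4 cKO libraries, each panel with its own y axis, with the group mean as a line and the SD as a bar. In all 4 panels the cKO points lie above the control points; P4ha3 is the gene that passed the threshold.

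Among receptors, the 3 with the lowest p were Ddr2, Mrc2 and Itgb1. Ddr2, a receptor tyrosine kinase for fibrillar collagen, had 0.634, 0.873, 3.35 and 0.947 CPM in the controls and 2.50, 12.2, 0.798 and 14.9 CPM in the cKO libraries (log2 fold change 2.38, SE 0.84, edgeR adjusted p 0.360). Mrc2, an endocytic receptor that takes up collagen, had 7.48, 1.53, 9.06 and 1.94 CPM in the controls and 12.3, 20.1, 11.1 and 12.1 CPM in cKO, without overlap (log2 fold change 1.47, edgeR adjusted p 0.364). Itgb1, the shared beta subunit of the collagen-binding integrins, had 145, 131, 153 and 145 CPM in the controls and 120, 115, 62.9 and 124 CPM in cKO, also without overlap (log2 fold change -0.45, edgeR adjusted p 0.501). The degrading enzymes Mmp2, Mmp14 and Ctsk had log2 fold changes of -1.59, -0.087 and -0.16 with edgeR adjusted p of 0.633, 0.922 and 0.977. Mmp2 stood at 1.84, 4.08, 33.3 and 1.23 CPM in the controls and at 8.73, 1.86, 0.741 and 2.14 CPM in cKO, and its estimate turned to 0.50 without control S6, the highest library. Mmp14 was at 109, 112, 105 and 96.4 CPM in the controls and at 64.6, 99.3, 121 and 113 CPM in cKO. Ctsk was at 0.634, 1.53, 0.934 and 0 CPM in the controls and at 1.38, 0.454, 0.171 and 0.728 CPM in cKO. The groups overlapped for all 3 enzymes. The signs of Mmp14 and Ctsk also turned under other settings.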

How the data were processed

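Sorted astrocyte RNA was sequenced in 8 libraries, 4 per group, grouped by sample title. Per the submitters' processing notes, the authors' tools included TopHat2 2.0.11, Bowtie2 2.2.3, HTSeq 0.6.1p1, Cufflinks 2.2.1, Cuffnorm and DESeq2 1.14.1, with the GRCm38 build. The strand setting of counting is not given in the sources used here. The deposited values are raw counts per gene. The authors also deposited FPKM, and, per the file headers, a DESeq2 comparison with group means of scaled counts (a signal), a log2 fold change, its standard error and Wald statistic (scores), and p-values with their adjustment. Of 8 FPKM columns, only 3 followed the counts of the library they are named for (11803 genes). The columns named control S6 and S7 followed the counts of S7 and S6. Those named cKO S4, S5 and S8 followed the counts of S8, S4 and S5 (correlations 0.868 to 0.878). Which naming is right cannot be told here, and library names in this text are those of the counts. All 8 columns followed their own group, so FPKM served only group tests and means.

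The 5 summary lines per table, 56.4% to 61.7% of reads, name no gene and were left out. No replicate pair agreed within sampling noise (chi-square per degree of freedom at least 18.5 over 12 pairs). Counts were tested with edgeR 4.0.16 (TMM, filterByExpr, quasi-likelihood test, Benjamini-Hochberg over all genes, threshold 0.05) in R 4.3.3. The SE of an edgeR estimate is the size of its log2 fold change divided by the square root of the test's F statistic. It is derived from the test and not estimated apart from it. Alternatives were DESeq2 1.42.0, limma 3.58.1 (voom on counts, and log2 FPKM with pseudocounts of 0.1 and 1), RLE size factors, library totals, libraries without rRNA and mitochondrial transcripts, 2 other filters (at least 1 count in any library, or 10 counts in every library), the fibroblast level as covariate, other pseudocounts for ratios (0.1 and 2), and leaving out each library. A count of 0 was given a limit of 3 counts, which covers counting error only. A reference list of gene names held 37607 of 39179 identifiers. GENCODE mouse release 21 (GRCm38) gave exon lengths and coordinates. Of the 44 collagen genes, 28 overlap another annotated gene and 13 share exon bases with one, whose reads cannot be told apart where strand was not used.

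The collagen genes, lists and tests were chosen with earlier results of these data known. The rule for full values took Col5a3, Col1a1, Col1a2 and Col3a1, any collagen gene past the threshold, the 10 highest per kilobase, the head-to-head pairs, and in each related list any gene past the threshold and the 3 with the lowest p. Col9a1, Col9a2, Col5a1, Col18a1 and Plod2 were given more fully after their values had been seen, and other genes are given more briefly.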

Additional observations from a re-analysis of the deposited data

Results flagged for a closer look

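In a group of 4 libraries, 1 value stood far from the other 3 in 7 of the 56 groups examined, and 6 of the 7 were in control S6. For independent groups of normally distributed values the cut would flag about 1 in 20 (2.8 here). The CPM were not transformed and the groups share libraries and genes, so these counts measure no excess over chance. Col1a1 was at 129.7 CPM in control S6, against 20.5 to 39.0 CPM in the other controls. Col3a1 was at 98.0 CPM in control S6, against 0 to 9.97 CPM. Col15a1 was at 126 CPM in control S6, against 0.570 to 10.8 CPM. The multiplexin sum was 128 CPM in control S6, against 0.697 to 16.9 CPM, and follows from Col15a1. The beaded filament sum was 40.6 CPM in control S6, against 4.63 to 6.48 CPM. The fibroblast marker sum was 284 CPM in control S6, against 14.6 to 45.3 CPM. Col11a2 was at 80.4 CPM in control S7, against 31.1 to 36.9 CPM.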

How the results depend on the processing

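Of 637 recomputed values, 13 reversed in sign. The 637 include counts of genes called and 50 levels per kilobase, which cannot change sign. No paired analysis was possible because the library numbers are not shared between groups. The count of genes called over all genes, 47 with edgeR, was 87 with the looser and 84 with the stricter filter on low counts, 24 with the fibroblast covariate, 384 with DESeq2, 8 and 7 on FPKM with pseudocounts of 0.1 and 1, and 4 to 45 when 1 library was left out. The count of collagen genes called, 1 with edgeR, was 2 with library totals and with either filter (Col5a3 and Col16a1), 0 with the covariate and on FPKM with either pseudocount, 5 with DESeq2, and 0 to 1 with a library left out. Col5a3 stayed above 0 in all 18 settings (2.54 to 3.14) but was not called with the covariate (2.90), on FPKM (2.97 and 2.54) or in 6 of 8 fits without 1 library (range 2.54 to 3.11). Fewer libraries are tested in those fits; the cause of the other losses was not tested. The Col1a2 estimate was -0.71 and called with DESeq2. Reversals were at estimates that passed in no setting, and their cause was not tested. With 1 library left out, Col3a1 ranged from -2.37 to 0.41, Col15a1 from -2.97 to 0.81, Col4a3 from -0.95 to 0.48, Mmp2 from -2.65 to 0.50, Mmp14 from -0.19 to 0.081, Ctsk from -0.75 to 0.39 (0.15 without cKO S5) and the log2 ratio of Col4a1 to Col4a2 from -0.63 to 0.18. With limma-voom Col4a3 was 0.012 and Ctsk 0.80. On FPKM Col4a3 was 0.92 and 0.32 with pseudocounts of 0.1 and 1. With library totals Mmp14 was 0.00022. Library totals moved the median of all genes from -0.017 to 0.091. Of 50 levels per kilobase recomputed by coding length, on FPKM or without control S6 (added after the data were seen), 28 moved by more than the spread between libraries. Coding length and FPKM change the scale itself, so this count is no measure of how stable the levels are. Genes with few reads, such as Col4a3 and Col4a4, are limited by depth. The 12 not tested had few reads or reads in few libraries, such as Col6a1 (136 counts in control S6, 0 in control S1 and S7).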
